A study of Mus musculus with 12 samples.

Results

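The chitinase and chitinase-like family of mouse, a part of glycosyl hydrolase family 18, was followed across the 12 arrays. Its members were taken as every probe set whose platform annotation lists exactly 1 gene symbol, where that symbol is Chil1, Chil3, Chil4, Chit1, Chia1, Chid1 or Ovgp1. This gave 7 of the 15858 genes on the array and 8 of the 28805 probe sets with 1 symbol. The family was chosen from measured values of these same arrays, namely the higher values of Chil1 and Ovgp1 with IDH1mut and R-2HG. Values of these 2 genes are therefore given below as a description without a test, and the other 5 members are read from the fit over all genes.

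Each of the 4 groups held 3 arrays of GFP-positive marrow cells, sorted 4 weeks after transplantation into irradiated recipients. The cells of every group, controls included, came from C57BL/6 marrow that HoxA9, a homeobox factor, had immortalised. Cells of the IDH1wt group carried pSF91-IDH1wt-IRES-EGFP, those of the IDH1mut group pSF91-IDH1mut-IRES-GFP, and those of the empty vector group a vector without IDH1. Mice of the R-2HG group received empty vector cells and R-2-hydroxyglutarate at 1 mg per day for 4 weeks. Mutant IDH1 makes this metabolite, so the design sets the enzyme beside its product given from outside. One text field of the R-2HG arrays mentions an IDH1mut vector, but their other labels give the empty vector and were followed. No label ties the replicates to separate mice, so p-values cover the spread among these samples, and that spread may be technical. The sorted cells are a mixed marrow population, in which fewer cells of a type and less RNA per cell cannot be told apart.

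Family 18 proteins fold into a barrel that binds chitin or related chains of N-acetylglucosamine. The true chitinases cut the chain. Chitinase-like proteins have lost the catalytic acid residue and act as secreted lectins. Mammals make no chitin, and several members are known from neutrophils and macrophages, where they are studied as markers of maturation, inflammation and tissue repair.

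The members lie in 3 places of the genome, given here on GRCm38.p6 from RefSeq. Chit1 (chr1:134111242-134151541) and Chil1 (chr1:134182156-134190031) are next to each other on chromosome 1. Ovgp1 (chr3:105973802-105987423), Chia1 (chr3:106113382-106132118), Chil3 (chr3:106147554-106167564) and Chil4 (chr3:106201491-106219479) form a cluster on chromosome 3. Chid1 (chr7:141493136-141539905) stands alone on chromosome 7. The 250 bases before the annotated start are shown for the 4 members with the largest differences upward under IDH1mut or R-2HG, to let the reader compare genes that moved together. They are RefSeq sequence of the same build, 5′ to 3′, with motif matches in capitals.

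Chil1, chr1:134181906-134182155, plus strand: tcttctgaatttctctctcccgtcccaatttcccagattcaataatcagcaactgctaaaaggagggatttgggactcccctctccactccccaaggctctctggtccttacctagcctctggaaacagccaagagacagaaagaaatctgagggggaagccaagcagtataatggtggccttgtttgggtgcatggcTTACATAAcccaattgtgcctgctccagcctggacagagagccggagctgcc
Ovgp1, chr3:105973552-105973801, plus strand: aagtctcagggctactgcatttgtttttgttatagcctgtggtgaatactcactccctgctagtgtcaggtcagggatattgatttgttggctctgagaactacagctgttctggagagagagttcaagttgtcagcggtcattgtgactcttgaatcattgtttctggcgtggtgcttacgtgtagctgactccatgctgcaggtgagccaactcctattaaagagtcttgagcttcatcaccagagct
Chil3, chr3:106167565-106167814, minus strand: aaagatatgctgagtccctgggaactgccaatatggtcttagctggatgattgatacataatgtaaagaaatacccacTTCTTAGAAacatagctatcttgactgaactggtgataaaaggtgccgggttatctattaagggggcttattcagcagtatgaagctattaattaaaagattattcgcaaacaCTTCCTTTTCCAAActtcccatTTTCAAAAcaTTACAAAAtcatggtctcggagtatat
Chil4, chr3:106219480-106219729, minus strand: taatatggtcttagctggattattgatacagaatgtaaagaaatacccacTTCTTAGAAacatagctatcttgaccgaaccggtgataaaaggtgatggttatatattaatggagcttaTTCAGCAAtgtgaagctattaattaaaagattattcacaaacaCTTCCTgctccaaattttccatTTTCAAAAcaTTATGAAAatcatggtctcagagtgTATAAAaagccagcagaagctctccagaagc

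The motifs searched on both strands were TATAAA, the ETS core AGGAAG, the C/EBP pattern TTNNGNAA and the STAT pattern TTCNNNGAA. Among 32851 promoter windows of this length, 12.4% held the first, 29.5% the second, 36.8% the third and 7.02% the fourth. Chil1 held 1 match, the C/EBP letters TTACATAA at -52 to -45. Chil3 and Chil4 each held 1 ETS and 3 C/EBP matches, and the first ETS and C/EBP matches of Chil3 adjoin. ETS matches also stood in the windows of Chit1 (2) and in each of the 3 windows of Chid1 (1). Both also held the STAT letters TTCTTAGAA, at -172 to -164 in Chil3 and at -200 to -192 in Chil4. Chil4 and Chia1 held TATAAA, at -31 and at -43 respectively. The upstream windows of Chil3 and Chil4 were identical at 201 of 220 aligned bases (91.4%). The window of Ovgp1 held no match to these letters in 250 bases. CpG pairs numbered 1 to 3 in the windows of the 6 members on chromosomes 1 and 3, and 21 to 23 in the 3 windows of Chid1, against a median of 6 over all windows. These are letter matches, not measured binding.

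The log2 values had been centred for each probe set, and therefore show how arrays differ but not how high a gene stands. The number of arrays limits their precision. Taken over the whole table, differences between 2 arrays had an SD of 0.178 for R-2HG replicates 1 and 2, the lowest of all pairs. The SD was 0.35 and 0.362 between either of them and replicate 3, above the lowest value between groups (0.294). Between R-2HG replicate 3 and IDH1mut replicate 1 it was 0.346, less than between replicate 3 and its own partners. R-2HG replicate 3 therefore stands apart, and some member results that rest on this group are also given without it or without its 2 partners. Fits of gene lists and neighbours below use all 3 R-2HG arrays. Idh1 differed by -0.16 ± 0.11 (SE, n = 3 a group; adjusted p = 0.525) in IDH1wt and by -0.06 ± 0.11 (adjusted p = 0.744) in IDH1mut against empty vector. For Hoxa9, IDH1mut minus IDH1wt was -0.54 ± 0.08 (adjusted p = 0.00135) and IDH1mut minus R-2HG -0.32 ± 0.08 (adjusted p = 0.0126). R-2HG minus IDH1wt was -0.22 ± 0.08 (adjusted p = 0.0444). Against empty vector Hoxa9 was at -0.24 with IDH1mut, 0.07 with R-2HG and 0.30 with IDH1wt (adjusted p = 0.0515, 0.495 and 0.102). Whether the probes of Idh1 and Hoxa9 match the constructs was not tested.

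Chil1 encodes a secreted chitinase-like lectin, the mouse counterpart of human CHI3L1, that is stored in specific granules of neutrophils. Its centred log2 values were -0.21, -0.29 and -0.37 in the empty vector arrays and 0.00, -0.03 and 0.02 with IDH1wt (probe set 1451537_at). They were 2.20, 2.35 and 2.08 with IDH1mut and 2.78, 2.85 and 1.51 with R-2HG. Every IDH1mut and R-2HG array lay above every array of the other groups, and R-2HG replicate 3 was the lowest of these 6. The difference from empty vector was 2.50 ± 0.26 (SE, n = 3 a group) with IDH1mut, or 5.65-fold. With R-2HG it was 2.67 ± 0.26, or 6.35-fold. It was 0.28 ± 0.26 with IDH1wt, whose arrays lay above those of empty vector without overlap. The SE pools the 4 groups, with an SD among arrays of 0.76 in R-2HG, 0.08 in empty vector and 0.02 in IDH1wt.

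The order of IDH1mut and R-2HG for Chil1 depended on which R-2HG arrays were used. IDH1mut minus R-2HG was -0.17 ± 0.26, within the SD of 0.76 among the R-2HG arrays. Without R-2HG replicate 3 it was -0.61, and without replicates 1 and 2 it was 0.70. R-2HG minus empty vector was 3.10 without replicate 3 and 1.79 without replicates 1 and 2.

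Ovgp1 encodes oviductin, a heavily glycosylated protein that the oviduct secretes around the egg and that has no chitinase activity. Its values were -1.41, -1.01 and -1.07 in empty vector arrays and -0.62, -0.53 and -0.44 with IDH1wt (probe set 1426526_s_at). They were 1.29, 1.29 and 1.39 with IDH1mut and 0.52, 0.27 and 0.33 with R-2HG. The 4 groups did not overlap, and their order was empty vector, IDH1wt, R-2HG and IDH1mut. The difference from empty vector was 2.49 ± 0.11 with IDH1mut (5.60-fold), 1.54 ± 0.11 with R-2HG (2.90-fold) and 0.63 ± 0.11 with IDH1wt (1.55-fold). IDH1mut exceeded R-2HG by 0.95 ± 0.11 and IDH1wt by 1.85 ± 0.11. The suffix of this probe set marks probes that may also match transcripts of other genes, and no other probe set of Ovgp1 has a single symbol.

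**Figure D1:**
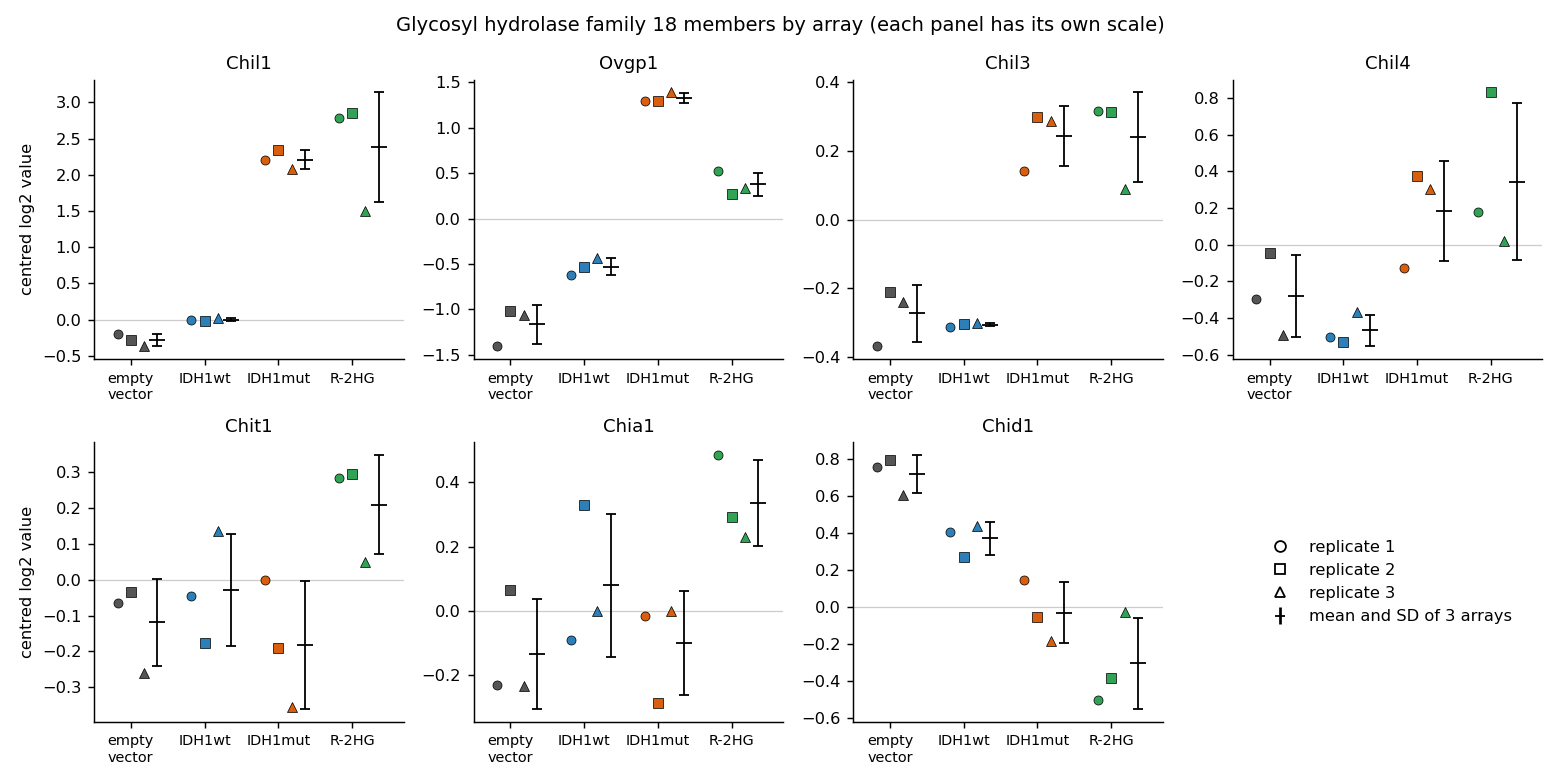
Centred log2 value (y axis, each panel with its own scale) of the 7 members on each of the 12 arrays, with the mean and SD of 3 arrays beside each group. Chil1 lies between 2.08 and 2.35 in IDH1mut arrays and reaches 2.85 with R-2HG, Ovgp1 is highest with IDH1mut, and Chid1 falls from left to right.

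Chil3, also called Ym1, is a secreted lectin that crystallises in lung disease and is made by immature neutrophils and by macrophages under type 2 cytokines. Chil3 values were -0.37, -0.21 and -0.24 in empty vector arrays, and -0.31, -0.30 and -0.30 with IDH1wt (probe set 1419764_at). They were 0.14, 0.30 and 0.29 with IDH1mut and 0.32, 0.31 and 0.09 with R-2HG. The IDH1mut and R-2HG arrays lay above the other 6. Chil3 rose by 0.52 ± 0.08 with IDH1mut (1.43-fold, limma adjusted p = 0.000861) and by 0.51 ± 0.08 with R-2HG (1.43-fold, adjusted p = 0.000566) against empty vector. Against IDH1wt it rose by 0.55 ± 0.08 with IDH1mut (adjusted p = 0.00114) and by 0.55 ± 0.08 with R-2HG (adjusted p = 0.000455). IDH1mut and R-2HG differed by 0.0026 ± 0.08 (adjusted p = 0.985), and IDH1wt and empty vector by -0.03 ± 0.08 (adjusted p = 0.881). With R-2HG replicates 1 and 2 left out, the difference from empty vector was 0.36 (adjusted p = 0.0517).

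Chil4, or Ym2, is a close copy of Chil3 that is best known from inflamed lung and stomach. Its values were -0.29, -0.05 and -0.49 in empty vector arrays and -0.51, -0.53 and -0.37 with IDH1wt (probe set 1425450_at). They were -0.13, 0.37 and 0.30 with IDH1mut and 0.18, 0.83 and 0.02 with R-2HG. The IDH1mut arrays overlapped the empty vector arrays and not the IDH1wt arrays. Chil4 rose by 0.62 ± 0.20 with R-2HG against empty vector (1.54-fold, adjusted p = 0.0243) and by 0.81 ± 0.20 against IDH1wt (adjusted p = 0.00635). IDH1mut exceeded IDH1wt by 0.65 ± 0.20 (adjusted p = 0.0417), while IDH1mut minus empty vector was 0.46 ± 0.20 (adjusted p = 0.114). The latter passed with array weights (0.57, adjusted p = 0.0426), without R-2HG replicate 2 (0.46, adjusted p = 0.0386) and without R-2HG replicates 1 and 2 (0.46, adjusted p = 0.0411). The call of R-2HG against empty vector was lost without empty vector replicate 1 (adjusted p = 0.0551) or 3 (0.0919), R-2HG replicate 2 (0.0949), or R-2HG replicates 1 and 2 (0.374), and in a fit of only the 6 arrays of these groups (0.0576). Against IDH1wt it was lost without R-2HG replicates 1 and 2 (0.147). That of IDH1mut against IDH1wt was lost in 6 of 22 alternatives, all of them with 1 array left out: empty vector replicate 1, any IDH1wt array, or IDH1mut replicate 2 or 3, with adjusted p from 0.0562 to 0.14.

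A further probe set, 1425451_s_at, is annotated to both Chil3 and Chil4 and so fell outside the rule. It read -0.52, -0.26 and -0.32 in empty vector arrays, -0.43, -0.54 and -0.57 with IDH1wt, 0.43, 0.66 and 0.61 with IDH1mut, and 0.52, 0.51 and 0.13 with R-2HG. Its group means differed by 0.93 between IDH1mut and empty vector and by 0.75 between R-2HG and empty vector, more than for either gene's own probe set. As the genes are near-identical, the split of signal between Chil3 and Chil4 is uncertain on this array.

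**Figure D2:**
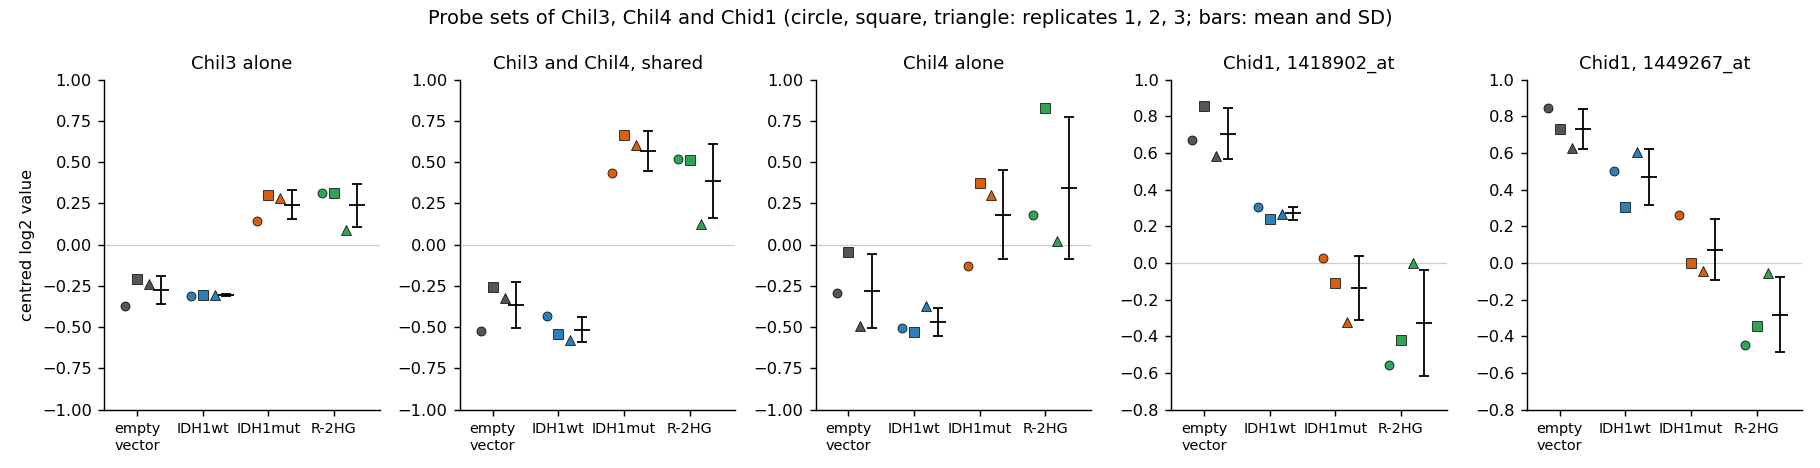
Centred log2 value (y axis) on each array for the probe sets of Chil3, of Chil3 and Chil4 together, of Chil4 and of Chid1, with mean and SD of 3 arrays. The shared set separates IDH1mut and R-2HG (0.13 to 0.66) from the other arrays (-0.57 to -0.26), and both Chid1 sets descend from empty vector to R-2HG.

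Chit1 encodes chitotriosidase, an active chitinase of macrophages, and in people of neutrophils. Chit1 values were -0.06, -0.03 and -0.26 in empty vector arrays and -0.05, -0.18 and 0.14 with IDH1wt (probe set 1453844_at). They were 0.00, -0.19 and -0.36 with IDH1mut and 0.28, 0.30 and 0.05 with R-2HG. The R-2HG arrays lay above the empty vector and IDH1mut arrays, and replicate 3 was within the range of IDH1wt. Chit1 rose by 0.33 ± 0.11 with R-2HG against empty vector (1.26-fold, adjusted p = 0.0377) and was lower in IDH1mut than in R-2HG by 0.39 ± 0.11 on the log2 scale (adjusted p = 0.0208). R-2HG minus IDH1wt was 0.24 ± 0.11 (adjusted p = 0.108), and it passed without R-2HG replicate 3 (0.32, adjusted p = 0.0466). IDH1mut minus empty vector was -0.06 ± 0.11 (adjusted p = 0.740). The rise with R-2HG passed in 16 of 22 alternatives, and it was lost without any 1 of the empty vector arrays, without R-2HG replicate 1 or 2, and without both (0.17, adjusted p = 0.544).

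Chia1 encodes acidic mammalian chitinase, a digestive and airway enzyme. Its values were -0.23, 0.07 and -0.23 in empty vector arrays and -0.09, 0.33 and 0.00 with IDH1wt (probe set 1416456_a_at). They were -0.01, -0.29 and 0.00 with IDH1mut and 0.48, 0.29 and 0.23 with R-2HG. The R-2HG arrays exceeded those of empty vector and IDH1mut, and overlapped those of IDH1wt. Chia1 rose by 0.47 ± 0.13 with R-2HG against empty vector (1.38-fold, adjusted p = 0.0129), and IDH1mut was below R-2HG by 0.44 ± 0.13 on the log2 scale (adjusted p = 0.0219). R-2HG minus IDH1wt was 0.26 ± 0.13 (adjusted p = 0.124). It passed with array weights (0.34, adjusted p = 0.0278) and without IDH1wt replicate 2 (0.38, adjusted p = 0.0336). IDH1mut minus empty vector was 0.03 ± 0.13 (adjusted p = 0.887). The rise with R-2HG was lost without empty vector replicate 3 (adjusted p = 0.0513), R-2HG replicate 1 (0.0577) or R-2HG replicates 1 and 2 (0.232). The direct test of IDH1mut against R-2HG held in 17 of 22 alternatives for Chit1 and in 18 of 22 for Chia1. For both it was lost without IDH1mut replicate 2 (adjusted p = 0.0527 and 0.0825), R-2HG replicate 1 (0.0737 and 0.0869), R-2HG replicate 2 (0.0797 and 0.0527) or both R-2HG arrays (0.425 and 0.324), and for Chit1 also without IDH1mut replicate 3 (0.0788).

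Chid1 encodes a secreted and lysosomal chitinase-like protein that binds the scavenger receptor stabilin-1. It was the member that fell. Chid1 values, each the mean of 2 probe sets, were 0.76, 0.80 and 0.60 in empty vector arrays and 0.41, 0.27 and 0.44 with IDH1wt. They were 0.14, -0.05 and -0.18 with IDH1mut and -0.50, -0.38 and -0.03 with R-2HG. Group means descended in the order empty vector, IDH1wt, IDH1mut and R-2HG, and the last pair overlapped. Chid1 fell by 0.75 ± 0.12 with IDH1mut (1.68-fold, adjusted p = 0.00107) and by 1.02 ± 0.12 with R-2HG (2.03-fold, adjusted p = 0.000135) against empty vector. It was lower with R-2HG than with IDH1wt by 0.67 ± 0.12 on the log2 scale (adjusted p = 0.00131), but without R-2HG replicates 1 and 2 by 0.40 on that scale (adjusted p = 0.0917).

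IDH1wt arrays lay below empty vector arrays for Chid1 without overlap, yet the difference of -0.35 ± 0.12 did not pass (adjusted p = 0.183). IDH1mut minus R-2HG was 0.27 ± 0.12 (adjusted p = 0.0968). It passed without R-2HG replicate 3 (0.41, adjusted p = 0.0101), with array weights (0.38, adjusted p = 0.00928) and with 1449267_at alone (0.35, adjusted p = 0.0444), and it was -0.0046 without R-2HG replicates 1 and 2 (adjusted p = 0.989). IDH1mut minus IDH1wt was -0.40 ± 0.12 (adjusted p = 0.0432), a call that held in 10 of 23 alternatives, with adjusted p up to 0.143. It was lost with 1418902_at alone (adjusted p = 0.0690), with 1449267_at alone (0.0519), with the probe set of highest SD (0.0733), with the replicate block (0.0731), and without any 1 of the IDH1wt or empty vector arrays, IDH1mut replicate 2 or 3, or R-2HG replicate 2. The separate probe sets agreed in direction: against empty vector, 1418902_at was at -0.84 ± 0.14 with IDH1mut and -1.03 ± 0.14 with R-2HG, and 1449267_at at -0.66 ± 0.12 and -1.01 ± 0.12. The falls against empty vector passed in 23 of 23 alternatives for both IDH1mut and R-2HG. With R-2HG replicate 3 as the lone R-2HG array the difference was -0.75 (adjusted p = 0.0106).

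**Figure D3:**
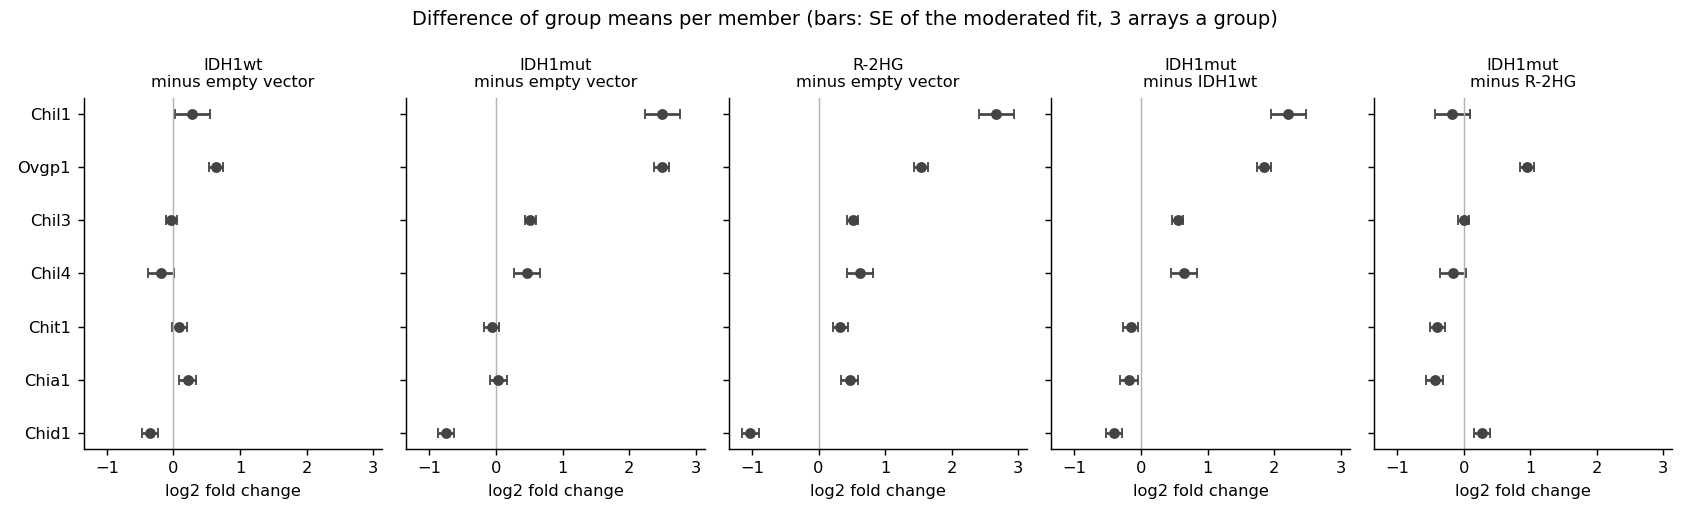
Log2 fold change (x axis) of each member in 5 comparisons, with bars of 1 SE of the moderated fit over 3 arrays a group. Chil1 and Ovgp1 stand near 2.5 with IDH1mut against empty vector, Chil3 at 0.52, and Chid1 at -0.75.

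Over the family, 3 of 7 members were higher and 1 was lower with IDH1mut against empty vector, where 10.5% of all genes were called higher and 12.1% lower. With R-2HG against empty vector 6 were higher and 1 was lower, beside 16.5% and 24.3% of all genes. These counts include Chil1 and Ovgp1, on which the family was chosen, and these comparisons share the empty vector arrays. Among the other 5 members, Chil3 rose and Chid1 fell with IDH1mut, and with R-2HG 4 rose and Chid1 fell. With R-2HG replicates 1 and 2 left out, R-2HG minus empty vector was smaller in size for each of these 5. It was 0.36 for Chil3, 0.30 for Chil4, 0.17 for Chit1, 0.36 for Chia1 and -0.75 for Chid1. With all 12 arrays, the median difference of these 5 was 0.03 with IDH1mut and 0.47 with R-2HG, beside -0.05 and 0.0030 over all genes.

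Against IDH1wt, 2 of these 5 members (Chil3 and Chil4) were higher and 1 (Chid1) was lower with IDH1mut, where 8.37% and 7.29% of genes were called. The same 3 members passed in the same directions with R-2HG, where 21.4% and 23% of genes were called. Without R-2HG replicates 1 and 2 these differences from IDH1wt were smaller, at 0.39 for Chil3, 0.49 for Chil4 and -0.40 for Chid1. Between IDH1mut and R-2HG, 2 of the 5 (Chit1 and Chia1) were lower in IDH1mut, beside 20.3% of all genes higher and 15.8% lower. For IDH1wt against empty vector, where 0.788% of genes were called higher and 0.561% lower, the smallest limma adjusted p among the 5 was that of Chid1 (0.183). The F test over the 4 groups passed for the 5 members outside the choice with adjusted p from 0.000249 (Chil3) to 0.0459 (Chit1), in a table where 54.6% of all genes passed it.

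Other enzymes of this chemistry were read from the same fit. Ctbs, the lysosomal chitobiase that trims N-glycan remnants, was at 0.01 ± 0.09 (adjusted p = 0.950) with IDH1mut and fell by 0.28 ± 0.09 with R-2HG (adjusted p = 0.0247). Engase, a cytosolic endoglycosidase, was at -0.14 ± 0.10 and 0.04 ± 0.10 (adjusted p = 0.348 and 0.753). Of 21 measured genes of lysosomal glycan breakdown, 3 rose and 7 fell with IDH1mut, and 4 rose and 9 fell with R-2HG. Beside these counts, 10.5% of all genes were higher and 12.1% lower with IDH1mut, and 16.5% and 24.3% with R-2HG. The list's median was -0.07 and -0.19. Glb1, the lysosomal beta-galactosidase, fell by 0.66 ± 0.10 and 1.00 ± 0.10, while Man2b1, an alpha-mannosidase, rose by 0.51 ± 0.07 and 0.73 ± 0.07. Lyz2, the lysozyme of myeloid cells, rose by 0.29 ± 0.06 and 0.30 ± 0.06 (adjusted p at most 0.00578 for these 3 genes in both comparisons).

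Of 11 measured genes for receptors and partners that chitinase-like proteins are reported to bind, 6 passed with IDH1mut, each higher, and with R-2HG 5 rose and 1 fell. Of all genes, 10.5% were higher and 12.1% lower with IDH1mut, and 16.5% and 24.3% with R-2HG. The list's median was 0.35 and 0.28, beside -0.05 and 0.0030 over all genes. Ager, the receptor for advanced glycation end products, rose by 0.77 ± 0.07 with IDH1mut and by 0.74 ± 0.07 with R-2HG (adjusted p = 2.4e-05 and 4.71e-05). Lgals3, encoding galectin-3, rose by 0.68 ± 0.11 and 0.60 ± 0.11 (adjusted p = 0.00113 and 0.0014). Tlr2, a sensor of microbial lipoproteins, rose by 0.69 ± 0.11 and 0.50 ± 0.11 (adjusted p = 0.000791 and 0.00328). Cd44, the hyaluronan receptor, rose by 0.49 ± 0.07 with IDH1mut (adjusted p = 0.000406) and was at 0.11 ± 0.07 with R-2HG (adjusted p = 0.228). IDH1mut exceeded R-2HG for Cd44 by 0.38 ± 0.07 (adjusted p = 0.00247).

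Of 19 measured genes that accompany Chil3 in macrophages activated by type 2 cytokines, 3 passed with IDH1mut and 3 with R-2HG against empty vector, each of them a fall. These counts are near or under the shares of all genes called lower (12.1% and 24.3%). Mrc1, the mannose receptor, fell by 0.77 ± 0.21 with IDH1mut and by 0.66 ± 0.21 with R-2HG (adjusted p = 0.0187 and 0.0238). Mgl2, a galactose lectin, fell by 0.58 ± 0.13 with IDH1mut (adjusted p = 0.00748) and was at 0.17 ± 0.13 with R-2HG (adjusted p = 0.309), while R-2HG exceeded IDH1wt by 0.48 ± 0.13 (adjusted p = 0.0117). Against IDH1wt, 4 passed with IDH1mut, each lower, where 7.29% of all genes were called lower. With R-2HG against IDH1wt 1 rose and 5 fell, beside 21.4% and 23% of all genes. The list's mean centred value ran from -0.05 to 0.11 in empty vector arrays and 0.04 to 0.30 with IDH1wt. It ran from -0.10 to 0.00 with IDH1mut and -0.22 to 0.09 with R-2HG. The IDH1mut arrays lay below the IDH1wt arrays, and the other pairs of groups overlapped.

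Of 18 measured genes of cytokines and transcription factors that act upstream of the family, 5 rose and 1 fell with IDH1mut and 3 rose and 2 fell with R-2HG. Over all genes, 10.5% were called higher and 12.1% lower with IDH1mut. With R-2HG these shares were 16.5% and 24.3%, and the counts of the list are near or under them. Csf3r, the G-CSF receptor, rose by 0.80 ± 0.11 and 0.77 ± 0.11 (adjusted p = 0.000489 and 0.000393). Cebpa, the C/EBP factor of early granulocyte development, fell by 0.63 ± 0.08 and 0.40 ± 0.08 (adjusted p = 0.000181 and 0.00167). Spi1, encoding the ETS factor PU.1, rose by 0.25 ± 0.08 with IDH1mut (adjusted p = 0.0361) and was at -0.18 ± 0.08 with R-2HG (adjusted p = 0.0712).

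Granule genes of neutrophils moved beside the family. Of 19 measured genes of a list for secondary granules and late neutrophil maturation, 12 rose and 1 fell with IDH1mut. With R-2HG 11 passed, each higher. Their mean centred value ran from -0.23 to -0.11 in empty vector, -0.18 to -0.14 in IDH1wt, 0.36 to 0.44 in IDH1mut and 0.22 to 0.43 in R-2HG arrays. Ltf, encoding lactoferrin, rose by 0.70 ± 0.08 and 0.63 ± 0.08 (adjusted p = 0.000124 and 0.000194), and Mmp8, neutrophil collagenase, by 2.15 ± 0.17 and 1.22 ± 0.17 (adjusted p = 1.31e-05 and 0.000247). Camp, Ngp, S100a8 and S100a9 of the same list passed in neither comparison (0.02 to 0.08, adjusted p at least 0.355). Lrg1 was at -0.31 ± 0.09 with IDH1mut (adjusted p = 0.0262) and 0.16 ± 0.09 with R-2HG (adjusted p = 0.176). Of 6 primary granule genes, made early, 5 fell in each comparison, among them Elane, neutrophil elastase, by 1.10 ± 0.13 and 0.43 ± 0.13 (adjusted p = 0.000144 and 0.0196). Their mean ran from 0.19 to 0.24 in empty vector arrays, 0.11 to 0.21 with IDH1wt, -0.54 to -0.40 with IDH1mut and -0.29 to -0.07 with R-2HG. Shares of all genes called higher and lower were 10.5% and 12.1% with IDH1mut, and 16.5% and 24.3% with R-2HG. The part of neutrophil stage in the family's values was not tested.

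**Figure D4:**
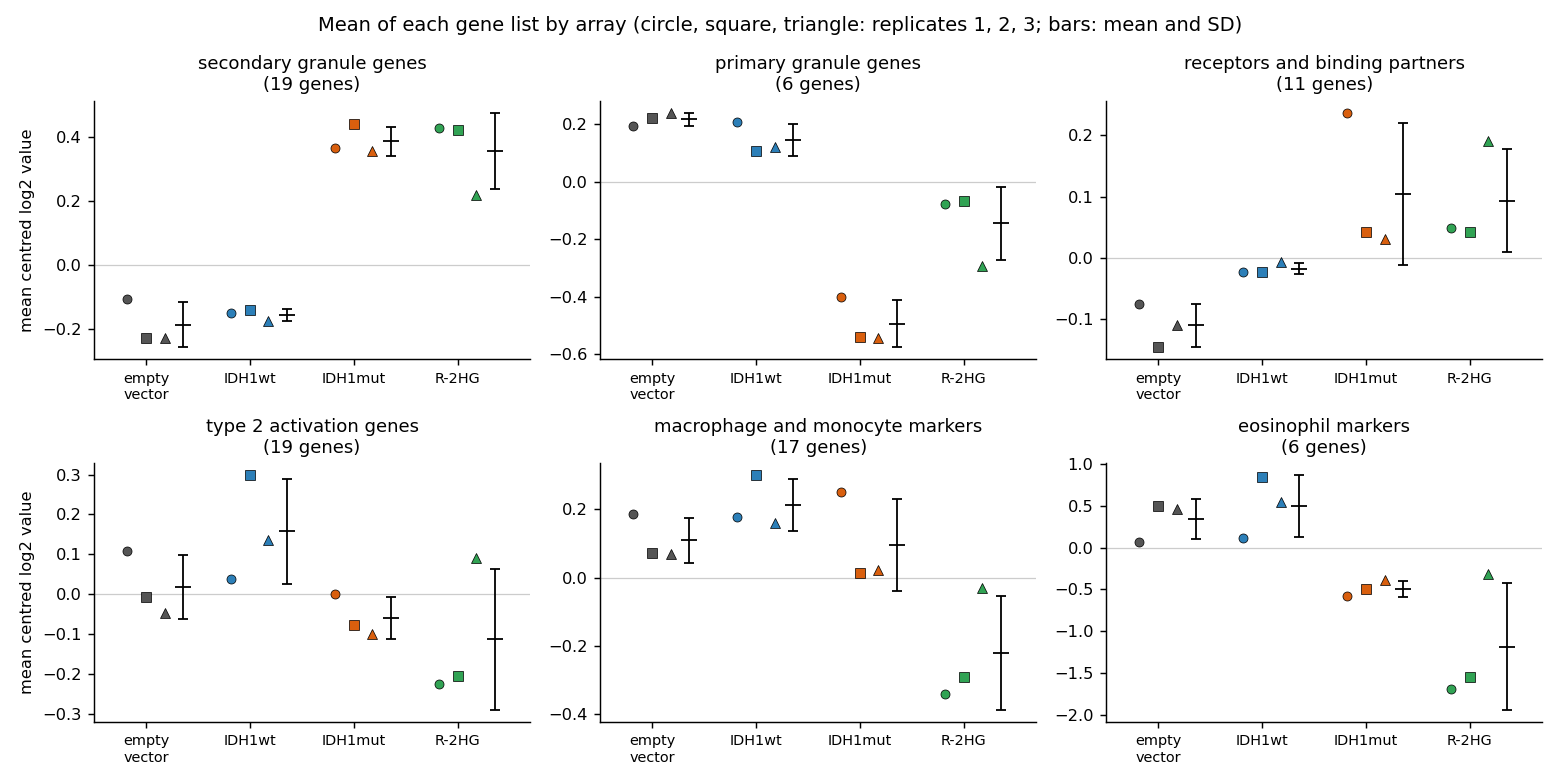
Mean centred log2 value (y axis) of 6 gene lists on each of the 12 arrays, with the mean and SD of 3 arrays beside each group. Secondary granule genes lie above 0 in the IDH1mut and R-2HG arrays and below 0 in the others, and R-2HG replicate 3 is apart from replicates 1 and 2 in each panel.

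Markers of other cells that could hold the family gave a mixed picture. Several counts below are near or under the shares of all genes. These were 10.5% higher and 12.1% lower with IDH1mut, and 16.5% and 24.3% with R-2HG. Of 17 macrophage and monocyte markers, 3 rose and 3 fell with IDH1mut, and 1 rose and 5 fell with R-2HG. Their mean was 0.07 to 0.19 in empty vector, 0.16 to 0.30 in IDH1wt, 0.01 to 0.25 in IDH1mut and -0.34 to -0.03 in R-2HG arrays. Cd14 fell by 1.43 ± 0.18 and 1.23 ± 0.18 (adjusted p = 0.000191 and 0.000345). Cd5l rose by 0.91 ± 0.16 with IDH1mut (adjusted p = 0.00159) and was at -0.16 ± 0.16 with R-2HG (adjusted p = 0.436). Of 6 eosinophil markers, 2 passed with IDH1mut and 4 with R-2HG, each lower, and their mean ran from 0.07 to 0.50, 0.11 to 0.84, -0.58 to -0.39 and -1.69 to -0.31 in the same order of groups. Of 11 oviduct and other epithelial markers, set beside Ovgp1, 2 passed with IDH1mut, both lower (Esr1 and Krt19), and 3 rose and 1 fell with R-2HG. Their mean ran from 0.04 to 0.09, -0.02 to 0.12, -0.14 to -0.05 and -0.11 to 0.15. Of 10 markers of bone and cartilage stroma, where Chil1 is also made, 1 rose with IDH1mut (Cxcl12, by 0.59 ± 0.09, adjusted p = 0.000521), and 2 rose and 1 fell with R-2HG. Their mean ran from -0.05 to 0.07, -0.14 to 0.25, -0.07 to 0.03 and -0.17 to -0.07.

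Further marker lists set R-2HG replicate 3 apart from its partners. The mean of 9 mast cell and basophil markers was -2.34 and -2.36 on R-2HG replicates 1 and 2 and 0.62 on replicate 3, beside 0.05 to 0.24 in empty vector, 0.06 to 0.95 in IDH1wt and -0.43 to 0.03 in IDH1mut arrays. With R-2HG, 1 of these 9 rose and 2 fell, as did 2 of 11 dendritic cell markers. These counts are near or under the shares of all genes called with R-2HG (16.5% higher, 24.3% lower). Dendritic means ran from -0.02 to 0.20, 0.10 to 0.33, -0.04 to 0.09 and -0.72 to 0.26. Of 11 B cell markers, 3 passed with IDH1mut, each higher, and 4 with R-2HG, each lower. B cell means ran from 0.03 to 1.12, -0.56 to 0.54, 0.55 to 1.49 and -0.63 to -0.32. Of 9 T and NK cell markers, 3 rose and 1 fell with IDH1mut and 2 rose and 3 fell with R-2HG, and of 9 erythroid markers 2 and 1 passed, each higher. T and NK means ran from 0.0020 to 0.17, -0.12 to -0.02, 0.20 to 0.38 and -0.15 to 0.12, and erythroid means from -0.69 to -0.67, -0.99 to 0.30, 0.22 to 0.44 and -1.37 to -0.02. Beside the counts with IDH1mut, 10.5% of all genes were higher and 12.1% lower. Centred values do not show which markers are at 0, and the part of these cells in the members' values was not tested.

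The genes around the members were read from the same fit. The 5 measured genes on each side of every member came to 31 genes outside the family. Of these, 8 rose and 2 fell with IDH1mut and 6 rose and 3 fell with R-2HG against empty vector, beside 10.5% higher and 12.1% lower, and 16.5% and 24.3%, of all genes. Their median was 0.0013 and 0.03, and that of all genes -0.05 and 0.0030.

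Next to Ovgp1 on chromosome 3, Wdr77, a subunit of a protein arginine methyltransferase complex, rose by 0.39 ± 0.08 with IDH1mut (adjusted p = 0.00352) and was at -0.17 ± 0.08 with R-2HG (adjusted p = 0.100). Its annotated start lies 14.3 kb below that of Ovgp1. Pifo, which lies 23.2 kb above Ovgp1 and below Chia1, was at -0.02 ± 0.10 with IDH1mut (adjusted p = 0.905) and 0.23 ± 0.10 with R-2HG (adjusted p = 0.0764). Beyond Chil4, Dennd2d rose by 0.53 ± 0.08 and 0.22 ± 0.08 (adjusted p = 0.000698 and 0.0449). Of 11 such genes on chromosome 3, 4 passed with IDH1mut, each higher, and 1 rose and 1 fell with R-2HG.

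On chromosome 1, Mybph, a muscle myosin-binding protein 11.3 kb above Chil1, was at -0.11 ± 0.11 with IDH1mut (adjusted p = 0.518) and 0.11 ± 0.11 with R-2HG (adjusted p = 0.412). Chit1, whose start is 70.9 kb below, is described above. Farther off, Btg2, an antiproliferative gene, rose by 0.65 ± 0.10 and 0.35 ± 0.10 (adjusted p = 0.000918 and 0.0185), Cyb5r1, a cytochrome b5 reductase, by 0.88 ± 0.08 and 0.62 ± 0.08 (adjusted p = 4.92e-05 and 0.000258), and Adipor1, an adiponectin receptor, by 0.65 ± 0.08 and 0.38 ± 0.08 (adjusted p = 0.000134 and 0.00218).

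Chid1 shares its end with Tspan4, a tetraspanin, and the annotated intervals overlap. Tspan4 fell by 0.63 ± 0.13 with IDH1mut and by 1.31 ± 0.13 with R-2HG (adjusted p = 0.00508 and 6.21e-05). Whether their probe sets share sequence was not tested. Cracr2b fell by 0.70 ± 0.13 and 0.36 ± 0.13 (adjusted p = 0.0024 and 0.0422), and on the far side Ap2a2 was at 0.19 ± 0.08 and -0.03 ± 0.08 (adjusted p = 0.0873 and 0.811).

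**Figure D5:**
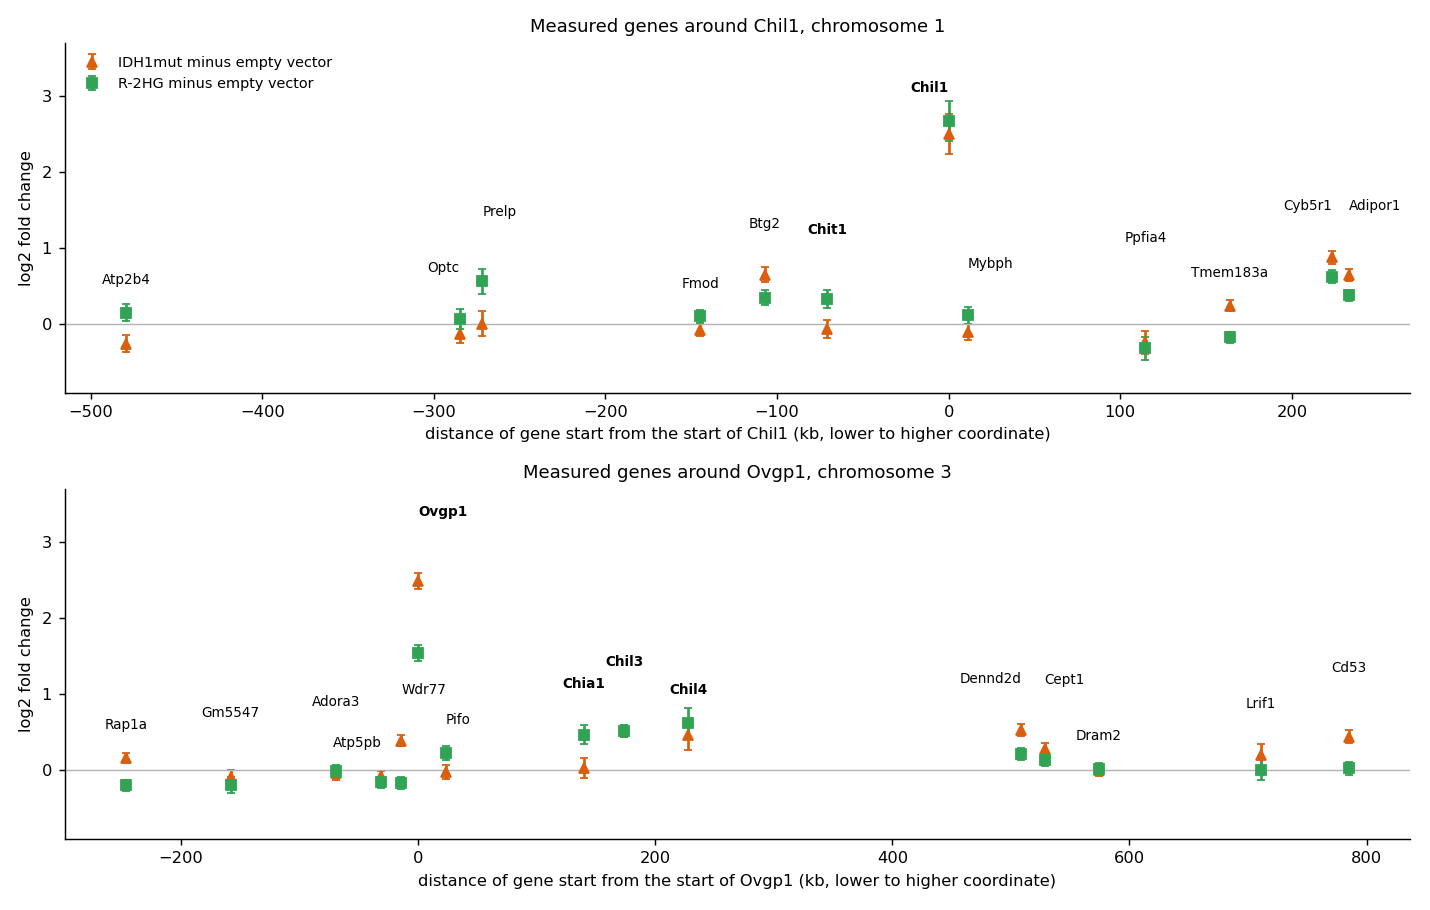
Log2 fold change (y axis, bars of 1 SE) of measured genes around Chil1 and around Ovgp1 against the distance of their annotated starts in kb (x axis), for IDH1mut and R-2HG against empty vector. Chil1 and Ovgp1 reach above 1.5 in both comparisons while their direct neighbours lie between -0.17 and 0.39, and the IDH1mut symbol of Chil3 is hidden behind that of R-2HG.

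Likeness of pattern was measured as Pearson's r with a member over the 12 arrays, which fall into 4 groups, so that r mainly follows the group means and is given without a test. Within the family, Chil1 was most like Chil3 (r = 0.97) and then Ovgp1 (0.87), and ran opposite to Chid1 (-0.92). Chit1 and Chia1 were less like Chil1 (0.35 and 0.38) and had r = 0.60 with each other. Beyond the family, all genes were ranked except those with clone, predicted or Rik names. Those most like Chil1 were Fmnl2, Padi4, Dnah6, Pygl and Uckl1 (0.98 to 0.99), and those most opposite were Rhoj, Zbtb4 and Btbd2 (-0.99 to -0.98). Padi4 also stands on the list of secondary granule genes. Group means of Fmnl2 were -0.33, -0.09, 1.87 and 1.73 in the order empty vector, IDH1wt, IDH1mut and R-2HG.

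For Ovgp1 the most alike were Pikfyve, Ipmk, Ube2b, Ifit1bl1 and Nod1 (0.98 to 0.99), and the most opposite Polrmt, Tmed9 and Cebpa (-0.98 to -0.96). Ifit1bl1 means were -0.63, 0.02, 1.20 and 0.53, in the same order of groups as Ovgp1. For Chil3 they were Atg16l2, Cep19, Prom1, Srpk2 and Tex15 (0.97 to 0.99), and opposite Nudc, Ifitm2 and Rftn1 (-0.98 to -0.97). For Chid1 they were Rplp0, Ncbp2, Nans, Rpl7a and Manf (0.97 to 0.98), among them genes of ribosomal proteins, and opposite Sidt2, Braf and Rbm33 (-0.98 to -0.97). The gene most like Chil4 was Rabif (0.94), that most like Chit1 was Tmc1 (0.91), and that most like Chia1 was Akap10 (0.94).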

How the data were processed

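The authors deposited log2 values from RMA, per the submitters' processing notes (version, centring and batches not given in the sources used here). They run from -6.48 to 4.93 for 32533 probe sets, and every array median is 0. Probe sets with 1 symbol in the platform annotation (28805) were averaged per gene (15858 genes, 8510 with 1 probe set). 2971 probe sets without a symbol and 757 with several were left out.

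A linear model with 1 term for each group was fitted to all 12 arrays in limma 3.58.1 (R 4.3.3), followed by eBayes without a trend (residual df 8, prior df 3.96). P-values are two-sided and Benjamini-Hochberg adjusted across the 15858 genes, and 0.05 was the threshold. No filter on low values was used. Members, neighbours, the most alike genes and 17 gene lists (up to 4 genes of each, by smallest F test p) were named by rule, and a part of them is printed. The members and lists were chosen with earlier results of these data known. The fit was tested on simulated data. The 22 alternatives changed array scaling, gene summary, prior, array weights, an SD filter at the 30th percentile, 6 arrays, a replicate block or the arrays used. A change of sign of a difference that was not called with all 12 arrays was not counted as a reversal.

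No pairing of the arrays by replicate number was seen. Promoters came from RefSeq (GRCm38.p6), and figures were drawn with matplotlib 3.10.9.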

Additional observations from a re-analysis of the deposited data

How the results depend on the processing

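Over 22 alternatives no member difference called with all 12 arrays changed sign. Chil1 for IDH1mut minus R-2HG, -0.17 with all arrays, was -0.61 without R-2HG replicate 3 and 0.70 without R-2HG replicates 1 and 2. Chil3 passed in 22 of 22 with IDH1mut against empty vector (log2 fold change 0.47 to 0.58) and in 21 of 22 with R-2HG (0.36 to 0.59), and Chid1 in 23 of 23, its 2 probe sets counted apart, in both. The number of members called, which includes Chil1 and Ovgp1 and so is a description only, moved most when arrays were left out. With 1 array left out in turn it ran from 3 to 5 for IDH1mut against IDH1wt, from 4 to 7 for R-2HG against empty vector, from 1 to 5 for IDH1mut against R-2HG and from 0 to 1 for IDH1wt against empty vector. The 1 was Ovgp1, on which the family was chosen. The 0 came without IDH1wt replicate 3, where limma gave 2 members an unadjusted p under 0.05. They were Ovgp1 and, outside the choice, Chid1 (0.0207). Without R-2HG replicates 1 and 2 it was 3 for R-2HG against empty vector and 3 against IDH1wt, and the lone array was then assumed to vary like the other groups.

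The replicate number as a block gave 4, 7, 1, 4, 5 and 3 members in the order IDH1mut, R-2HG and IDH1wt against empty vector, IDH1mut and R-2HG against IDH1wt, and IDH1mut against R-2HG, and 6 by the F test. Chid1 lost its call for IDH1mut against IDH1wt (adjusted p = 0.0731). Deviations of arrays with the same number correlated between -0.15 and 0.12, and 3 of 12 arrays were most like their own number. No pairing by number was seen, though 3 arrays a group cannot exclude one.

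Over all genes, IDH1wt against empty vector gave 214 called genes, but 382 with the highest SD probe set, 521 after a second quantile normalization, 1388 with array weights and 84 to 375 with 1 array left out. Without R-2HG replicates 1 and 2 the calls were 1824 for R-2HG against empty vector, 1610 against IDH1wt, 336 for IDH1mut against R-2HG and 4155 by the F test, in place of 6471, 7035, 5714 and 8651. IDH1mut against IDH1wt gave 2484, but 1568 without IDH1wt replicate 3 and 1636 without IDH1mut replicate 2, and IDH1mut against R-2HG 3376 and 3109 without R-2HG replicate 1 or 2. Single probe sets, tested over 28805, gave 6320, 11377, 560, 4059, 11714 and 9793 in the order above and 15083 by the F test.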
